A study of Mus musculus with 6 samples.

Results

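Collagens are the main structural proteins of the extracellular matrix. Each is built from chains wound into a trimeric helix, and the chains are encoded by separate genes. Fibrillar collagens form the banded fibers of connective tissue, basement membrane (type IV) collagens form the sheet under epithelia and around vessels, and fibril-associated collagens sit on the surface of fibers and link them to other matrix proteins. In mammary tumors these RNAs come mostly from stromal cells, with basement membrane chains also made by endothelial and epithelial cells, and dense fibrillar collagen is what is called fibrosis or desmoplasia.

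The collagen genes were taken as all genes with a symbol made of Col, a number, the letter a and a number, which gave 44 of the 55385 genes in the deposited tables. By class, 11 were fibrillar, 6 basement membrane, 9 fibril-associated and 18 of other kinds (beaded filament, network-forming, anchoring, transmembrane and basement membrane zone collagens, with Col26a1 and Col28a1 in none of these). Of these, 42 were abundant enough to be tested among 19427 genes, and Col6a4 and Col19a1 were not.

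RNA was sequenced from tumors of female NeuT/ATTAC+AP mice in a control and a DMHCA-treated group, with 3 libraries in each. Both groups carry a constitutively active rat ErbB2[V664E] transgene driven by the MMTV promoter in mammary epithelium, and an FKBPv-caspase-8 fusion driven by the FABP4 promoter in fat. Both are described as receiving the dimerizer AP20187 at 0.4 mg/kg from 6 weeks of age, which partially ablates mammary fat and lets fibrotic tissue replace it. The treated mice also ate a diet with 0.05% DMHCA (about 100 mg/kg), an agonist of the liver X receptor (LXR), from 8 weeks of age. The controls' label, AP20187 Vehicle, can be read as AP20187 plus vehicle or as vehicle alone, and the labels name the tissue as mammary gland fibrosis. The question put to the collagen genes was whether their RNA levels differed between the groups, because the study asked whether DMHCA lessens fibrosis.

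Expected counts summed to between 46358654 and 63420620 per library. Between DMHCA libraries 1 and 3 the biological coefficient of variation was 0.0511, against 0.343 to 0.480 for the other pairs within a group. They were therefore counted as 1 sample (DMHCA 1+3, counts summed and TPM averaged), which left 3 control and 2 DMHCA samples. The p-values measure the spread between these 5 samples. Epithelial markers were abundant in every sample (Epcam at 926 to 1493 TPM, where TPM is the length-corrected share of all transcripts). The tissue also held skeletal muscle RNA (5 of 5 markers, 247 to 1021 TPM in sum). In whole tissue, fewer cells of a type and less RNA per cell cannot be told apart.

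No collagen gene differed between control and DMHCA tumors at an adjusted p under 0.05 in the edgeR quasi-likelihood test, and the smallest adjusted p was 0.644. Nor did any of the 19427 genes tested (0.0%). At an unadjusted p under 0.05, Col16a1 was lower with DMHCA (1 of 42 collagens, against 4.08% of all genes) and Col27a1 was higher (1 of 42, against 3.53% of all genes), so 2 of 42 passed in either direction where 7.61% of all genes did. The 42 collagens had a median log2 fold change (DMHCA over control) of 0.31, against -0.03 for all genes tested. A positive log2 fold change was found for 27 of the 42 (64.3%), against 48.0% of all genes. Without DMHCA 2 the collagen median was -0.10, the same as that of all genes (-0.10).

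In tumor RNA as a whole, collagen transcripts summed to 2066, 1369 and 1482 TPM in controls 1, 2 and 3, and to 1696 and 2226 TPM in DMHCA 1+3 and DMHCA 2. The group means were 1639 ± 374 (SD, n = 3) and 1961 ± 375 (SD, n = 2). The control and DMHCA sums overlapped, with control 1 between the DMHCA samples and controls 2 and 3 below both. Fibrillar transcripts summed to 872, 388 and 756 TPM in the controls and 672 and 861 TPM in the DMHCA samples. Fibril-associated transcripts gave 783, 713 and 488 TPM in the controls and 736 and 708 TPM with DMHCA, and in control 2 they made up 52.1% of all collagen RNA, more than the fibrillar class at 28.3%. Both classes overlapped between the groups. Basement membrane transcripts were lowest in control 3 and highest in DMHCA 2, at 209, 143 and 84.5 TPM in the controls against 114 and 325 TPM with DMHCA.

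**Figure D1:**
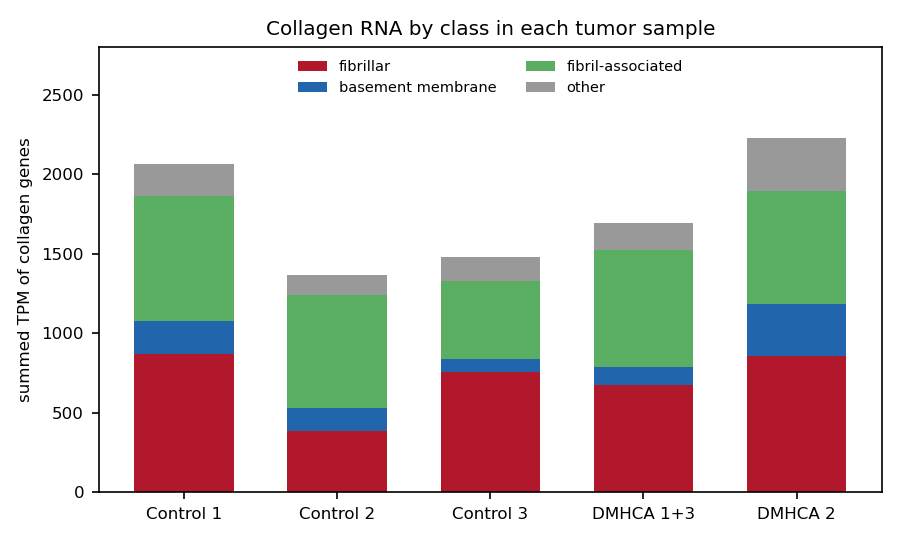
Stacked bars show the summed TPM of the 44 collagen genes in each of the 5 samples, divided into fibrillar, basement membrane, fibril-associated and other collagens. The totals run from 1369 (control 2) to 2226 (DMHCA 2), and the blue basement membrane block is largest in DMHCA 2 at 325 TPM.

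The fibrillar collagens of ordinary connective tissue, types I, III and V, did not separate the groups. Col1a1, the major chain of type I collagen, was at 162, 39.9 and 96.4 TPM in the controls and 106 and 161 TPM with DMHCA. Control 2 was lowest, and control 1 and DMHCA 2 were nearly equal at the top. Its log2 fold change was 0.29 with a 95% interval of -0.89 to 1.47 (edgeR, adjusted p = 0.869), so a fall to about 0.541-fold and a rise of 2.77-fold both lie within the interval. Col1a2, the partner chain, had a log2 fold change of -0.05 (-0.93 to 0.83). Col3a1, which makes the fine fibers of pliable tissue, was the most abundant fibrillar transcript at 266, 133 and 422 TPM in the controls and 282 and 257 TPM with DMHCA, and both DMHCA values lay within the control range. Its log2 fold change was -0.14 (-1.17 to 0.89). On the log2(TPM + 1) scale the differences were 0.18 for Col1a2 and 0.12 for Col3a1, of the opposite sign. Col5a1, Col5a2 and Col5a3, the type V chains that set fiber diameter, had log2 fold changes of 0.48, 0.38 and 0.54, each with an interval that included 0. Together the 6 genes of types I, III and V summed to 680, 281 and 719 TPM in the controls and 568 and 676 TPM with DMHCA.

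The remaining fibrillar genes are better known from cartilage and from development. Col27a1, a fibrillar chain of growing cartilage, had 4461, 1363 and 1034 normalized counts in controls 1, 2 and 3 and 10042 and 4378 in DMHCA 1+3 and DMHCA 2. DMHCA 1+3 was the highest sample, but control 1 lay just above DMHCA 2, so the groups overlapped. In TPM, DMHCA 2 (17.3) lay just above control 1 (15.8). The level was 3.15-fold higher with DMHCA (95% interval 1.02 to 9.79, log2 1.66, SE 0.68), with an unadjusted edgeR p of 0.0476 and an adjusted p of 0.644. Col27a1 no longer passed the unadjusted threshold with a minimum count of 50, with robust dispersions, or without control 2, control 3 or DMHCA 1. Its log2 fold change was 2.59 without control 1. Col11a1, the main type XI chain, was at 161, 89.4 and 32.5 TPM in the controls and 65.2 and 153 TPM with DMHCA, and the DMHCA values lay within the control range. Col11a2, its partner, was at 1.51 to 13.0 TPM, and Col2a1, the hallmark chain of cartilage fibers, was at only 0.06 to 5.50 TPM.

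Fibril-associated collagens held both the transcript with the highest mean TPM and the gene with the smallest p. Col16a1 encodes the type XVI chain, a minor component of fibers in skin and cartilage that also occurs near basement membranes. It had 14752, 11584 and 14681 normalized counts in controls 1, 2 and 3, and 4250 and 3900 in DMHCA 1+3 and DMHCA 2. All control samples lay above both DMHCA samples, and the gap between the groups was wider than the spread within either. The level was 3.36-fold lower with DMHCA (95% interval 2.11 to 5.33, log2 -1.75, SE 0.28). The unadjusted edgeR p was 0.000534 and the adjusted p 0.644. In TPM the same gene stood at 133, 86.2 and 138 in the controls against 39.0 and 34.5.

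The call on Col16a1 depended on the tool. DESeq2 gave an adjusted p of 1.125e-05 on the same 5 samples, and Col16a1 was the only collagen it called (1.15% of all genes were called lower and 1.48% in either direction). DESeq2 on the 6 libraries, the tool and samples of the study's methods, also called this collagen alone, lower (3.0% of all genes were called lower and 4.96% in either direction). With the 6 libraries taken as separate samples, edgeR gave Col16a1 an adjusted p of 0.153. Leaving out any 1 library left its log2 fold change between -1.85 and -1.64. RSEM's mean transcript length for the gene was 2319 to 2791 bases in all 6 libraries, while its longest annotated transcript has 5206 bases. The value therefore describes the gene as a whole, and which transcripts it stems from was not tested.

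**Figure D2:**
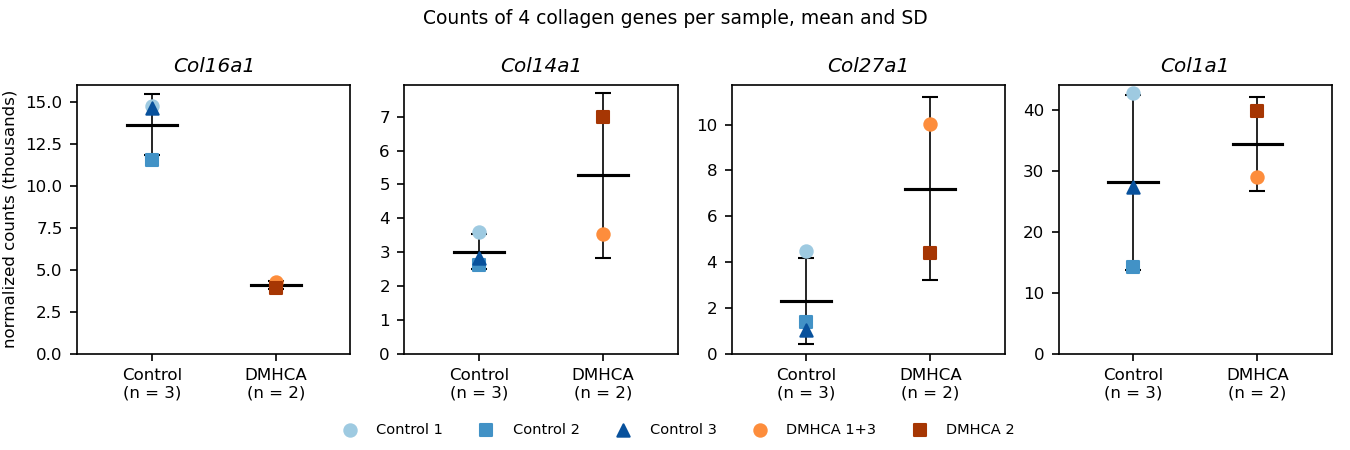
Normalized counts (axis in units of 1e3) of Col16a1, Col14a1, Col27a1 and Col1a1 in each sample, with group mean (line) and SD (bars) for 3 control and 2 DMHCA samples. The groups are apart for Col16a1 (11584 to 14752 against 3900 to 4250) and overlap for the other 3 genes.

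Adipocyte markers were also lower in the DMHCA tumors. DESeq2 called 4 of 5 lower at an adjusted p under 0.05 on the 5 samples and 5 of 5 on the 6 libraries, while edgeR called 0. Of all genes, DESeq2 called 1.15% lower on the 5 samples and 3.0% on the 6 libraries, and edgeR called 0.0%. All 5 of 5 (Adipoq, Plin1, Fabp4, Lep and Cfd) were lower with DMHCA at an unadjusted edgeR p under 0.05, as were 4.08% of all genes. Their summed level ran from 130 to 1174 TPM in the controls and from 70.8 to 77.0 TPM with DMHCA. None was at 0, and Adipoq was at 0.765 and 1.45 TPM with DMHCA. The 4 B cell markers (4 of 4 lower, again unadjusted in edgeR, and called in DESeq2 on the 6 libraries for 4 and on the 5 samples for 0) summed to 0.94 to 251 TPM in the controls and 1.73 to 1.97 TPM with DMHCA, with overlap. The part of fat or lymphoid tissue in the Col16a1 difference was not tested.

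Col16a1 lies at chr4:130047840-130099283 on the plus strand (GRCm38) and Col27a1 at chr4:63214004-63334991, also on the plus strand. Neither overlaps another tested gene. Because DMHCA acts on a nuclear receptor and these were the only collagens past the unadjusted threshold, the 250 bases before their RefSeq starts (GRCm38.p6, chr4:130047590-130047839 and chr4:63215162-63215411, plus strand) are shown, with capitals marking a GC box (GGGCGG) or CCAAT box (CCAAT).

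Col16a1: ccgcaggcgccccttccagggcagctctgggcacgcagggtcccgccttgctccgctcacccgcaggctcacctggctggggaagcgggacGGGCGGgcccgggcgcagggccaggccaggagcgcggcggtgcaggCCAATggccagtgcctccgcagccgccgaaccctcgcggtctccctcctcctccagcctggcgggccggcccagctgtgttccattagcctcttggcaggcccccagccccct

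Col27a1: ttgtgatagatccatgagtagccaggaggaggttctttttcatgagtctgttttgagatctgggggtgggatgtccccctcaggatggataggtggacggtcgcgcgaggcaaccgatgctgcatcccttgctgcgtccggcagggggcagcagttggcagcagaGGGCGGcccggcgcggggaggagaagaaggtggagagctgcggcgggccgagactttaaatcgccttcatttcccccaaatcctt

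The Col16a1 stretch has 75.6% G and C, with a GC box at 159 and a CCAAT box at 113 bases before the start. The Col27a1 stretch has 59.6% G and C and a GC box at 85 bases before the start. Over RefSeq windows from 250 bases before to 50 after each start, searched on both strands, the GC box occurred in 23 of 38 collagen windows (60.5%, in 22 of 35 genes with an entry) and in 35.7% of all 32851 windows. The CCAAT box occurred in 34.2% of collagen windows and 37.4% of all windows, and TATAAA in 13.2% and 13.6%. TATAAA was found in the windows of Col3a1, Col10a1, Col11a2, Col13a1 and Col17a1. The letters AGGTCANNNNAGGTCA, the ideal spaced repeat bound by LXR, occurred in 0 of 38 collagen windows and in 5 of all windows (0.0152%), so these letters are absent from these windows and nothing more follows. None of these motifs contains another.

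Type IX collagen, which normally decorates cartilage fibers, was among the most abundant collagen RNAs of these tumors. Col9a1 had the highest mean TPM of all collagens over the 5 samples (317), above Col3a1 (272), but in control 3 Col3a1 was higher (422 against 190 TPM). It was at 328, 390.0 and 190 TPM in the controls and 363 and 316 TPM with DMHCA, with control 3 lowest and the DMHCA samples inside the control range. Its log2 fold change was -0.07 (-1.17 to 1.03, but 0.23 on the log2(TPM + 1) scale), Col9a2's was 0.29 (-0.44 to 1.03) and Col9a3's was 0.24 (-0.99 to 1.47). Col9a2 stood at 120, 99.3 and 84.5 TPM in the controls and 162 and 137 TPM with DMHCA, higher in both DMHCA samples in TPM but not in normalized counts. RSEM's mean transcript length for Col9a1 was 2954 to 3021 bases, near the 3059 bases of its shorter long transcript and below the 3834 bases of the longest, although a mean cannot separate transcripts in a mixture.

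The cartilage-type genes as a set (types II, IX, X and XI) summed to 751, 682 and 342 TPM in the controls and 701 and 752 TPM with DMHCA. In control 3 they were 23.1% of collagen RNA and in control 2 they were 49.8%. Of 5 cartilage markers, Matn1 and Matn3 were at or below 0.11 TPM in every sample. Acan, the main cartilage proteoglycan, was at 1.70 TPM in control 1 and at or below 0.03 TPM in the other samples. Comp, a pentameric matrix protein of cartilage and tendon, was at 245, 450 and 13.3 TPM in the controls and 262 and 442 TPM with DMHCA, and Cnmd was at 1.5 to 140 TPM. Sox10, a transcription factor of neural crest lineages, was at 140 to 312 TPM in the controls and 350 and 380 TPM with DMHCA. Col9a1 and Comp shared their lowest sample, control 3, which had the lowest normalized count for 26.0% of all genes. Cnmd was instead lowest in DMHCA 1+3, at 1.5 TPM against 3.77 TPM in control 3. What cells made these RNAs was not tested.

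Col14a1 and Col12a1, the fibril-associated chains of dense connective tissue, had positive log2 fold changes. Col14a1 had 3594, 2622 and 2818 normalized counts in the controls and 3547 and 6981 with DMHCA. DMHCA 2 was the highest, while DMHCA 1+3 lay just below control 1. In TPM, DMHCA 1+3 (18.7) lay just above control 1 (18.2), so there the groups did not overlap. The log2 fold change was 0.81 (-0.02 to 1.63, edgeR adjusted p = 0.644), and without the DMHCA 2 library it was 0.28. The TPM ratio of Col16a1 to Col14a1 was 7.30, 8.68 and 10.0 in the controls and 2.09 and 0.911 with DMHCA. This ratio was chosen after the values were seen, and the smallest p an exact permutation test of 3 against 2 samples can give is 0.2. Col12a1 was at 26.5 to 55.6 TPM in the controls and 43.6 and 55.0 TPM with DMHCA. Col20a1 was at most at 2.2 TPM and Col22a1 at most at 0.53 TPM.

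**Figure D3:**
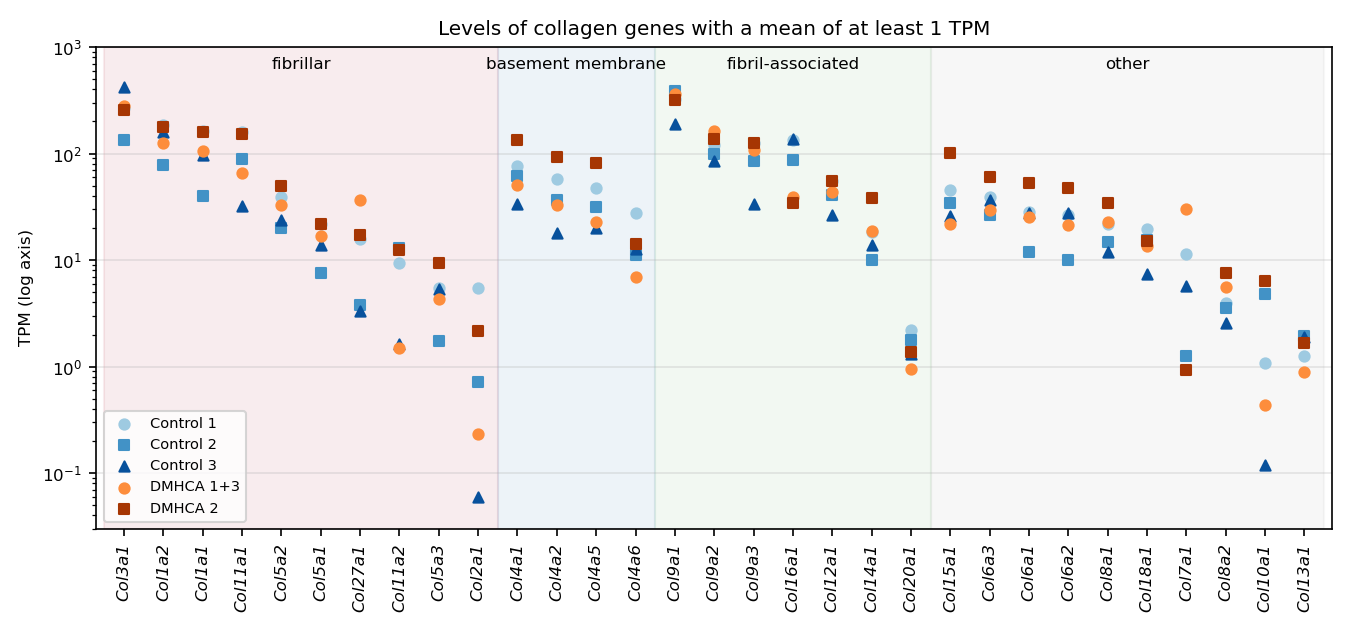
TPM (log axis) in each of the 5 samples for collagen genes with a mean of at least 1 TPM, ordered by mean level within each class. Blue symbols are controls and orange symbols DMHCA, and Col16a1 shows the DMHCA points (39.0 and 34.5) clearly below the control points (86.2 to 138).

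Basement membrane collagen was higher in a single DMHCA tumor. Col4a1 and Col4a2, whose chains form the common type IV trimer, are transcribed outward from neighbouring starts 21 bases apart on chromosome 8. Col4a1 was at 75.7, 62.0 and 33.2 TPM in the controls and 50.8 and 135 TPM with DMHCA. Col4a2 followed it at 57.4, 36.7 and 18.0 TPM in the controls and 32.8 and 93.3 TPM with DMHCA. For both genes control 3 was lowest, DMHCA 2 highest, and DMHCA 1+3 within the control range. The log2 fold changes were 0.49 (-0.80 to 1.77) and 0.53 (-0.85 to 1.91), with adjusted p-values of 0.794 and 0.789 in edgeR. The ratio of the chains stayed between 1.32 and 1.85, a 1.40-fold spread, while the genes themselves spread 4.07-fold and 5.19-fold across samples. The transcripts of this pair overlap at their starts, and whether strand was used in counting is not given in the sources used here.

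The other type IV pair, Col4a5 and Col4a6, also starts from a shared region, with 1309 bases between the starts on chromosome X. Col4a5 behaved like Col4a1, at 47.1, 31.6 and 20.04 TPM in the controls and 22.8 and 81.4 TPM with DMHCA. Col4a6, a chain found mainly under epithelia and around smooth muscle, had 8138, 4406 and 4072 normalized counts in the controls and 2127 and 3934 with DMHCA. Both DMHCA samples were below all controls, DMHCA 2 only slightly, and in TPM the groups overlapped (11.05 in control 2 against 14.1 in DMHCA 2). The log2 fold change was -0.87 (-1.91 to 0.17, edgeR adjusted p = 0.644). Trp63, a marker of the myoepithelial cells that lie on this membrane, had a lower level in the DMHCA samples with an unadjusted p under 0.05 (log2 -2.64, edgeR adjusted p = 0.644). It was the only 1 of 5 myoepithelial markers with an unadjusted edgeR p under 0.05 (4.08% of all genes were lower). DESeq2 called 1 of the 5 lower on the 6 libraries (3.0% of all genes) and 0 on the 5 samples. The 5 markers summed to 2.51 to 55.3 TPM in the controls and 2.58 to 9.21 TPM with DMHCA. Their part in the Col4a6 values was not tested.

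The TPM ratio of Col4a6 to Col4a5 was 0.581, 0.349 and 0.636 in the controls and 0.306 and 0.173 with DMHCA. The groups did not overlap, but this ratio was picked after its values were seen and the 2-sided exact permutation p was 0.2, the smallest possible here. Col4a3 and Col4a4, the chains of kidney and lung membranes, were at or below 1.04 TPM in every sample.

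**Figure D4:**
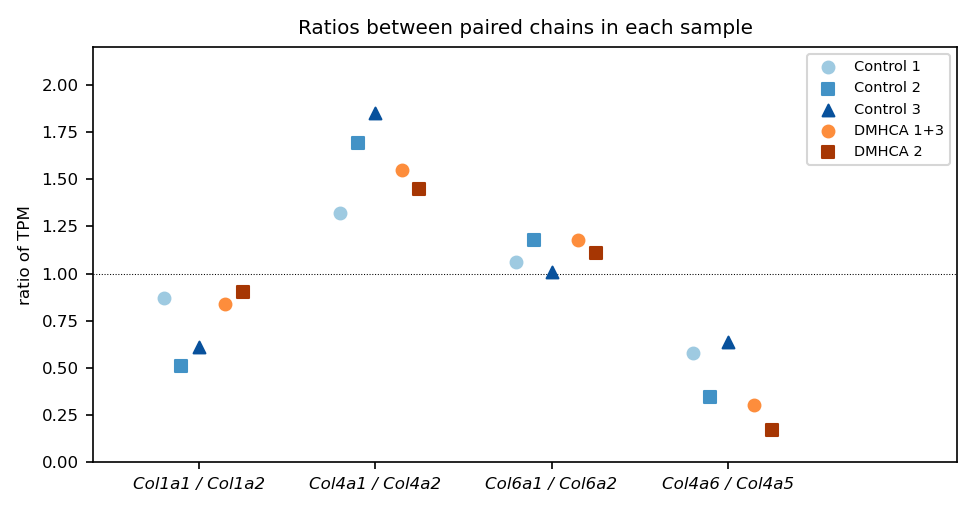
TPM ratios of paired collagen chains in each sample, with a dotted line at a ratio of 1. Col6a1 over Col6a2 stays between 1.01 and 1.18 and Col4a1 over Col4a2 between 1.32 and 1.85, while Col4a6 over Col4a5 runs from 0.173 to 0.636 with both DMHCA samples lowest.

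Among the other collagens, type VI was also highest in DMHCA 2, but lowest in control 2. Its chains assemble beaded microfibrils around cells. Col6a1 was at 28.3, 11.8 and 27.7 TPM in the controls and 25.4 and 52.9 TPM with DMHCA, so DMHCA 2 was highest and DMHCA 1+3 was below controls 1 and 3. Col6a2 kept a Col6a1 ratio of 1.01 to 1.18 in all samples. The log2 fold changes were 0.62 (-0.34 to 1.58) for Col6a1, 0.51 (-0.55 to 1.58) for Col6a2 and 0.70 (-0.34 to 1.73) for Col6a3. The ratio of Col6a3 to Col6a1 was 1.38, 2.25 and 1.32 in the controls and 1.15 and 1.13 with DMHCA in TPM. In normalized counts, which are not divided by transcript length, it was 1.20, 1.33 and 0.851 in the controls and 0.947 and 1.25 with DMHCA, so the groups overlapped. The alternative chains Col6a5 and Col6a6 were at or below 0.34 TPM, and Col6a4 was at or below 1.02 TPM.

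The network-forming type VIII chains of vessel walls were the only collagens with normalized counts higher in every DMHCA sample than in every control. Col8a1 had 4923, 4536 and 2912 normalized counts in the controls and 5282 and 7380 with DMHCA. Col8a2 had 732, 909 and 500 in the controls and 1091 and 1369 with DMHCA. Both had control 3 lowest and DMHCA 2 highest, and the margin between the groups was small. The log2 fold changes were 0.62 (-0.15 to 1.38) and 0.79 (-0.10 to 1.67), with edgeR adjusted p-values of 0.648 and 0.644. Such separation was found for 2 of 42 collagens upward and for 2 (Col16a1 and Col4a6) downward, both shares (4.76%) below those of all genes (13.8% upward and 12.2% downward). Of 6 endothelial markers, 3 had a positive log2 fold change, and the list median was 0.12. Only Cdh5 was higher at an unadjusted edgeR p under 0.05 (log2 0.81, adjusted p = 0.644), as were 3.53% of all genes. DESeq2 called 0 of the 6 on the 5 samples and 1, higher, on the 6 libraries (4.96% of all genes in either direction). The list summed to 45.7 to 62.6 TPM in the controls and 62.5 to 71.2 TPM with DMHCA. The part of vessels in the Col8a1 and Col8a2 values was not tested.

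Several other members varied widely between tumors without following the groups. Col15a1, a proteoglycan-type collagen of the basement membrane zone, was at 45.1, 34.2 and 25.7 TPM in the controls and 21.7 and 102 TPM with DMHCA, so in TPM the DMHCA samples were the lowest and the highest. In normalized counts control 3 was lowest, at 2827 against 3296 in DMHCA 1+3. Its relative Col18a1, the source of endostatin, had a log2 fold change of -0.14 (-1.12 to 0.84, but 0.11 on the log2(TPM + 1) scale). Col7a1, which anchors epithelial basement membranes, was at 11.4, 1.27 and 5.65 TPM in the controls and 30.5 and 0.93 TPM with DMHCA. It too was highest in one DMHCA sample and lowest in the other. Col10a1, the chain of hypertrophic cartilage, spread 53.3-fold between samples, from 0.12 TPM in control 3 to 6.40 TPM in DMHCA 2. Of the transmembrane collagens, Col17a1 of the hemidesmosome had a log2 fold change of -2.42 (-5.69 to 0.84) at levels of at most 1.74 TPM, Col25a1 one of -1.43 (-4.12 to 1.26) and Col13a1 one of -0.47 (-1.78 to 0.84), while Col23a1 had a positive one of 0.42 (-1.15 to 1.98). Without control 3 that of Col17a1 was -0.71, and without control 1 that of Col25a1 was -0.72.

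**Figure D5:**
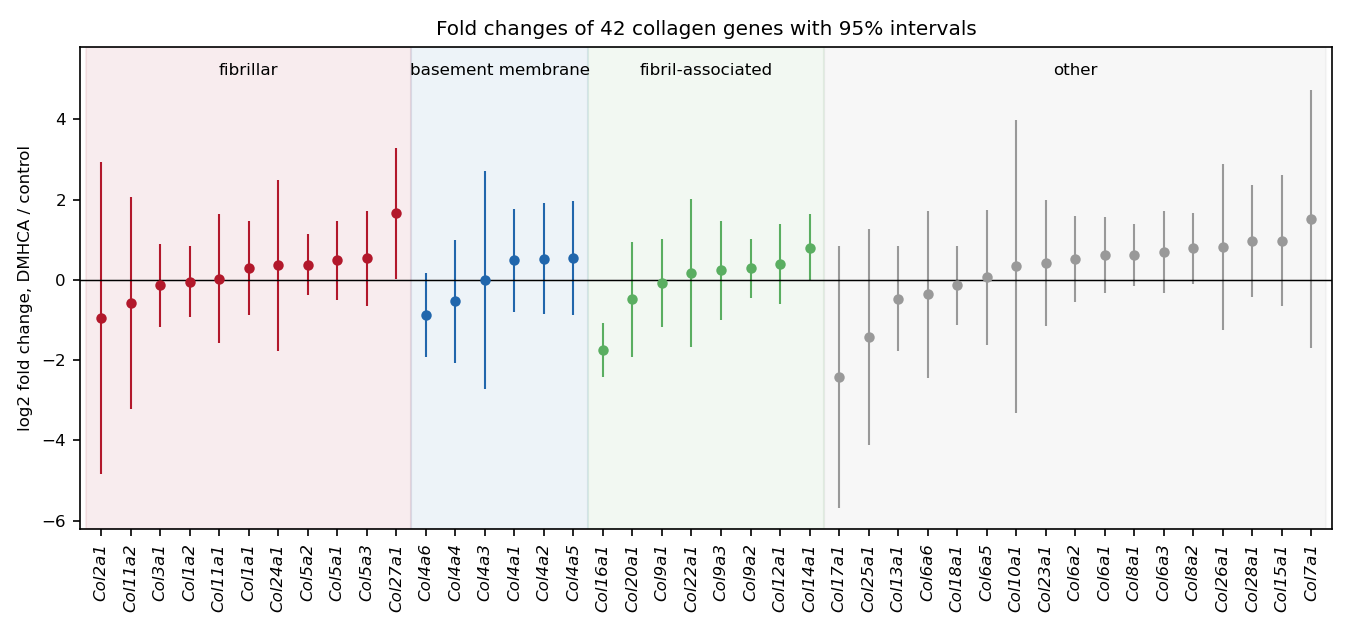
Log2 fold change (DMHCA over control) with 95% interval for the 42 tested collagens, ordered within class. The intervals of Col16a1 (-2.41 to -1.08) and Col27a1 (0.02 to 3.29) exclude 0, and those of the other 40 include it.

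Collagens were highest in DMHCA 2 more often than in any other sample. It had the highest normalized count for 17 of 42 collagens, where 22% of all genes had their highest value, among them 9 of 17 in the other class and 3 of 6 in the basement membrane class. Control 1 was highest for 9 (6.59% of all genes), control 2 for 8 (24.5%), control 3 for 5 (27.4%) and DMHCA 1+3 for 3 (19.5%). The lowest count was in control 3 for 18 collagens (26.0% of all genes) and in control 2 for 16 (24.7%). DMHCA 2 was lowest for 4 (23.2%), DMHCA 1+3 for 3 (18.6%) and control 1 for 1 (7.52%). Without DMHCA 2, the median log2 fold change was -0.43 for the basement membrane class (0.24 with it) and -0.11 for the other class (0.51 with it), against -0.10 for all genes without that sample. The basement membrane median also turned negative with the 6 libraries taken as separate samples (-0.044, or -0.056 in DESeq2). The fibrillar median was 0.29 and the fibril-associated median 0.20 with all samples, and across the samples left out in turn they ran from 0.00 to 0.68 and from -0.17 to 0.38. DMHCA 2 also had the highest Erbb2 level (635 TPM, against 191 to 439 in the other samples) and the lowest skeletal muscle sum (247 TPM, against 562 to 1021). The part of these in the collagen values was not tested.

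The RNA of fibroblast markers was highest in a control tumor. The 8 markers (Pdgfra, Pdgfrb, Thy1, Fap, Dpt, Pdpn, Dcn and Lum) summed to 235, 137 and 792 TPM in the controls and 206 and 136 TPM with DMHCA, so control 3 stood far above the rest. Dcn, decorin, was at 521 TPM in control 3 and 46.2 to 119 TPM elsewhere. None of the 8 had an unadjusted edgeR p under 0.05, and 7 had a negative log2 fold change. The sum of collagen I, III and V transcripts was also highest in control 3, at 719 TPM, against 680 TPM in control 1 and 676 TPM in DMHCA 2. By normalized counts, however, only 1 of these 6 genes (Col3a1) was highest in control 3. Of the others, 2 were highest in control 1 and 3 in DMHCA 2. Pdgfrb, on the same list, was highest in DMHCA 2, at 12.0 TPM against 4.57 to 8.25 TPM elsewhere. The part of fibroblasts in the collagen values was not tested.

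Genes that make, trim, link, bind or cleave collagen were grouped into 7 lists of collagen partners. Of their 73 tested genes, 0 passed an adjusted p under 0.05 in edgeR, which called 0.0% of all genes. At an unadjusted p under 0.05 in edgeR, 4 were higher and 1 was lower (3.53% of all genes were higher and 4.08% lower). The members that passed are described here one by one, and the lists are too short to read their counts against those shares. For basement membrane partners 2 of 13 were higher and 0 lower. Nid2, nidogen 2, which bridges laminin and type IV collagen, was at 3.69, 3.88 and 4.04 TPM in the controls and 7.50 and 10.8 TPM with DMHCA (log2 1.27, SE 0.37, edgeR adjusted p = 0.644). Lama5, a laminin chain, had a log2 fold change of 0.96 (SE 0.39). Both were higher in each DMHCA sample than in every control, as were 13.8% of all genes. Of the 73 partners, 7 were separated upward in this way and 5 downward (12.2% of all genes downward).

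Of 13 collagen-binding matrix proteins, 2 were higher and 0 lower, and the list had a median log2 fold change of -0.12. Its most negative values, which did not pass, were those of Dcn (-1.79) and Lum, lumican (-1.003). Fmod, fibromodulin, which binds type I fibers, was at 3.51, 2.79 and 4.38 TPM in the controls and 8.44 and 6.5 TPM with DMHCA (log2 0.89, SE 0.36). Podn, podocan, a related leucine-rich proteoglycan, had a log2 fold change of 0.98 (SE 0.39). Of 8 procollagen-trimming genes, 1 was lower: Adamts14, an enzyme that removes the amino-terminal propeptide, at 0.87 to 2.93 TPM in the controls and 0.61 and 0.66 TPM with DMHCA (log2 -1.76, SE 0.72). All 19 chain modification and folding genes, 5 cross-linking enzymes, 9 tested collagen receptors and 6 collagen-cleaving proteases had an unadjusted p over 0.05. The median log2 fold changes of these 4 lists were -0.06, 0.09, -0.38 and -0.43, against -0.03 for all genes.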

How the data were processed

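RNA was extracted from snap-frozen tissue and sequenced as paired-end reads, and the study describes 3 control and 3 DMHCA mice. Why DMHCA libraries 1 and 3 are nearly identical is not given, so whether they come from 1 mouse is not known. The authors trimmed reads with Cutadapt 2.9, checked them with FastQC 0.11.9, and aligned and counted them with RSEM 1.3.1 and Bowtie2 2.4.1 on Ensembl mm10 (versions from the submitters' processing notes). Strand settings are not given in the sources used here. The authors deposited RSEM's expected counts per gene, which are not normalized, and TPM, scaled by RSEM for length and depth to the same sum in each library. RSEM's mean transcript length was read from the same deposited tables.

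Expected counts were rounded, DMHCA libraries 1 and 3 were summed, and all genes were fitted together with edgeR 4.0.16 in R 4.3.3 (TMM, filterByExpr minimum count 10 and total 15, quasi-likelihood F-test, Benjamini-Hochberg over 19427 genes). Intervals are 95% from the standard error and the fit's degrees of freedom. Normalized counts were obtained by dividing each count by its TMM effective library size and multiplying by the mean of these sizes. DESeq2 1.42.0 and limma 3.58.1 on log2(TPM + 1) and log2(TPM + 0.1) were alternatives, with other filters, robust dispersions, 6 separate libraries, a replicate block and each library left out. The fit was tested on simulated data. TPM gave levels and ratios, with mean and SD over samples.

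Values are given for collagens with an unadjusted p under 0.05, for the 3 with the highest mean TPM in each class or subclass of at least 3, and for the other chains of their trimers. The 10 others (Col2a1, Col5a1, Col5a2, Col5a3, Col7a1, Col11a1, Col11a2, Col12a1, Col14a1 and Col18a1) the values given for Col6a4, Col20a1, Col22a1 and Col23a1, and the chain ratios with Col4a6 or Col14a1 were chosen after their values were seen. Members and lists were chosen with earlier results of these data known. Coordinates are from GENCODE on GRCm38, and promoter sequences are from RefSeq on GRCm38.p6, where 35 of 44 collagens matched.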

Additional observations from a re-analysis of the deposited data

How the results depend on the processing

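The count of collagens at an adjusted p under 0.05 was 0 in edgeR under every alternative run and in limma, and 1 (Col16a1) in DESeq2 on the 5 samples and on the 6 libraries. At an unadjusted p under 0.05 the count of 2 (7.61% of all genes) became 4 with 6 separate libraries (15.6% of all genes), 5 with DESeq2 on them (17.8%), 6 without a filter (7.93%), 1 with a minimum count of 50 (7.29%), 1 with robust dispersions (7.43%), and 1 to 5 when a library was left out (4.26% to 9.40%). With the replicate number as a block on the 6 libraries it was 5 (17.2% of all genes), and Col16a1 had an edgeR adjusted p of 0.175. The same-numbered libraries are from different mice. Their deviations from the group means correlated at -0.05, 0.32 and 0.33, and those of differently numbered libraries at -0.36 to 0.32. With so few libraries, and DMHCA 1 and 3 nearly identical, these values cannot show whether the numbers mark a pairing.

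Of 575 values of 36 collagens under 16 alternatives, 523 kept direction and side of the threshold, 2 (Col16a1) gained it, and 50 in 19 genes changed sign. With 6 libraries Col10a1 was -0.16 and Col11a1 -0.18 (DESeq2 -0.17 and -0.19). With the replicate block Col10a1 was -0.013, Col11a1 -0.024 and Col9a1 0.071. On log2(TPM + 1) Col18a1 was 0.11, Col1a2 0.18, Col3a1 0.12, Col4a3 0.020 and Col9a1 0.23, and on log2(TPM + 0.1) these were 0.12, 0.19, 0.13, 0.092 and 0.23, with Col6a6 at 0.044. The TPM scale shifted the median of all genes by 0.14 and 0.19. A minimum count of 50 gave Col11a1 -0.012 and Col6a5 -0.010, and no filter gave Col4a3 0.026. The cause was not tested.

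With 1 library left out at a time, median log2 fold changes ran from -0.10 to 0.54 for all collagens, -0.43 to 0.29 for the basement membrane class and -0.11 to 0.66 for the other class, lowest without DMHCA 2 in each. With 6 separate libraries the basement membrane median was -0.044, with the replicate block -0.023 and with DESeq2 on them -0.056. Among log2 fold changes that changed sign, those lowest without DMHCA 2 were Col2a1 (-3.28 to 1.11), Col4a1 (-0.29 to 0.70), Col4a2 (-0.28 to 0.82), Col4a3 (-1.26 to 1.35), Col4a5 (-0.57 to 0.81), Col6a2 (-0.034 to 0.72), Col6a3 (-0.075 to 0.88), Col10a1 (-2.45 to 2.41), Col11a1 (-0.63 to 0.44), Col11a2 (-2.83 to 0.23) and Col15a1 (-0.59 to 1.25). Those lowest without a control were Col1a1 (-0.030 to 0.71), Col1a2 (-0.26 to 0.096), Col3a1 (-0.39 to 0.23), Col6a5 (-0.33 to 0.66), Col6a6 (-0.75 to 0.84), Col9a1 (-0.35 to 0.34), Col9a3 (-0.15 to 0.49) and Col18a1 (-0.45 to 0.070). Without DMHCA 2 a lone DMHCA sample is assumed to vary like the controls. With 3 against 2 samples the 95% interval of the log2 fold change had a half-width over 1 (2-fold) for 31 of 42 collagens, with a median of 1.35.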

Other observations

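The mean transcript length that RSEM assigned to a gene varied more than 1.5-fold between libraries for 4 abundant collagens, Col6a3, Col7a1, Col12a1 and Col15a1. Col6a3 ran from 2494 bases in control 2 to 4495 bases in DMHCA 2, Col12a1 from 2991 to 5237 bases in the same libraries, and Col7a1 from 2404 to 4307 bases. Col15a1 ran from 2398 bases in control 3 to 4000.4 bases in DMHCA 2. These 4 had a mean of at least 500 normalized counts. Counting all 9 tested collagens that varied as much, the longest value was in DMHCA 2 for 6 and the shortest in control 2 for 4. Over the 1343 genes of any kind that varied as much, DMHCA 2 held the longest value for 21.1% and control 2 the shortest for 21.9%. TPM divides by this length, so for these genes TPM and counts spread differently between samples. What sets these lengths was not tested.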
